A study of Mus musculus with 5 samples.

Results

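Small islands of compartment A that lie inside compartment B were followed in sorted neuronal nuclei of the mouse hippocampus. The islands were found in the Basal state, as runs of 1 to 4 neighbouring 50 kb bins with a mean Basal PC1 above 0, each flanked on both sides by at least 6 neighbouring bins below 0. PC1 is the first principal component of the Hi-C interaction matrix, a signed score per bin. On the autosomes without chromosome 7, the rule found 152 islands with 342 bins, out of 44650 bins with a value in all 5 libraries (0.766%) and 50542 such bins in the whole series. Basal values chose the members, so every Basal value below is a description. Early and Late values were not used by the rule.

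Hi-C records which stretches of the genome touch in the nucleus, by joining and sequencing them in pairs. Its main axis of variation divides chromosomes into A, which is gene-rich, open and mostly transcribed, and B, which is gene-poor, closed and often held at the nuclear lamina. Positive PC1 is read here as A and negative PC1 as B. In many cell types a short stretch of A inside a long B domain can hold an isolated transcribed gene or gene cluster. Genes inside the islands were not analysed here, because the files use the mouse build mm9 and no annotation of that build was used.

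The mice came from the cross ArcCreERT2 x R26R-STOP-floxed, whose reporter is yellow fluorescent protein (eYFP), and had the genotype +/+. Arc is an immediate early gene of active neurons, so its tamoxifen-dependent Cre marks with eYFP the cells that were active around a dose of 4-hydroxytamoxifen, and only where Arc is expressed. The dose preceded contextual fear conditioning, in which a place is paired with a foot shock. Nuclei were stained for NeuN, a neuronal nuclear protein, and for GFP, and 100000 nuclei per group, pooled from 2 animals, went into the Hi-C libraries. The groups are Basal (2 libraries), Early (1 library) and Late (2 libraries), named by their titles. All 5 carry the same treatment label, foot shock on day 0, collection on day 0 and no recall, while the protocol names 2 collection windows, 1.5 to 2 h and 5 days past the foot shock. What separates the groups beyond their titles is therefore not given in the sources used here, and neither are the ages of the mice or the antibody gate of each group. Hi-C holds no RNA level, so the neuronal identity of the nuclei could not be checked by markers.

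The libraries listed 50558 to 51726 bins each. They differed in local noise, an estimated SD per bin. It was solved from differences between libraries in the distance of a bin from the mean of the bins 2 places away. It stood at 0.121 and 0.124 PC1 units for the Basal pair, at 0.229 for Early and at 0.113 and 0.203 for Late replicates 1 and 2. All pairs of libraries entered, so local differences between states count as noise too. For Early, with 1 library, the 2 cannot be told apart. Compartment A held 47.0% and 46.9% of autosomal bins for the Basal pair, 49.2% for Early, then 48.2% and 48.5% for the Late pair. The Basal pair had a Pearson r of 0.987 over all autosomal bins and the Late pair 0.968. Correlations here are across bins or islands, which are not independent replicates.

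The islands were short and shallow. Of the 152, 46 were a single bin of 50 kb, 50 spanned 100 kb, 28 spanned 150 kb and 28 spanned 200 kb, and together they covered 17.1 Mb. They made up 1.63% of the autosomal A bins. Their flanks were B stretches with a median length of 1375 kb on the side toward the centromere and 1300 kb on the other side. The median distance to the nearest A run of more than 4 bins was 1200 kb, and the farthest island lay 6300 kb from one. Another island lay within 1 Mb of 37 of the 152. Most islands lay in the interior of their chromosome, with 13 starting within 5 Mb of the first bin and 4 ending within 5 Mb of the last.

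Islands were unevenly spread over chromosomes. Chromosome 18 had the highest density, with 13 islands and 27.99 per 100 Mb of Basal B chromatin, followed by chromosome 15 with 12 islands and 21.6 per 100 Mb. Chromosome 17 had the lowest, with 2 islands and 4.75 per 100 Mb. The median over the 18 autosomes was 13.7. Chromosome 18 also held 4 of the 5 islands with the highest Basal PC1.

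Basal PC1 of the islands lay close to the border of A and B. Over islands, the mean PC1 of an island ranged in Basal replicate 1 from -0.168 to 0.716 with a median of 0.162, and in Basal replicate 2 from -0.151 to 0.632 with a median of 0.158. An island entered by the mean of both libraries, and 121 of 152 lay above 0 in both of them. In 50 islands every bin was above 0 in both Basal libraries and all 12 adjoining flanking bins below 0 in both. The rule's cut at 0 therefore passed through the noise for a good part of the list. The 3 islands just inside it had Basal means of 0.0019, 0.0026 and 0.0034, and the 3 highest single bins just outside it had -0.0036, -0.0063 and -0.0091. The highest 4-bin islands had Basal means of 0.638, 0.621 and 0.606, and the highest 5-bin runs, which the rule leaves out, had 0.654, 0.630 and 0.592. There were 28 islands of 4 bins and 15 otherwise eligible runs of 5. A shorter flank of exactly 6 bins belonged to 15 islands, the highest with Basal means of 0.370, 0.178 and 0.164. A flank of 5 bins kept out 27 runs, the highest with 0.917, 0.421 and 0.309.

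Basal PC1 was higher in longer islands. The Basal mean was 0.078 ± 0.073 for single bins (SD over 46 islands), 0.162 ± 0.111 for 2 bins, 0.235 ± 0.132 for 3 bins and 0.318 ± 0.158 for 4 bins. The share of islands in A in both Basal libraries was 54.3%, 86.0%, 89.3% and 100% in the same order. These are values of the libraries that chose the islands.

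Between 54.6% and 60.5% of the islands were still in A in each later library. In Early 83 of 152 islands (54.6%) had a mean PC1 above 0. In Late replicate 1 it was 92 (60.5%), in Late replicate 2 it was 89 (58.6%), and in both Late libraries 81 (53.3%). In all 5 libraries 52 islands (34.2%) lay in A. In Early and both Late libraries 37 islands (24.3%) lay in B. Counted by bin, 58.5% of the 342 member bins were in A in Early, beside 91.8% of the other Basal A bins and 12.1% of the Basal B bins. In both Late libraries the shares were 54.4% of member bins, 90.0% of the other A bins and 6.99% of B bins. The bins of the islands sat between the A and B bins in both states, and the rule picks A bins near the border. These shares carry no test, because the groups hold 2, 1 and 2 libraries.

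**Figure D1:**
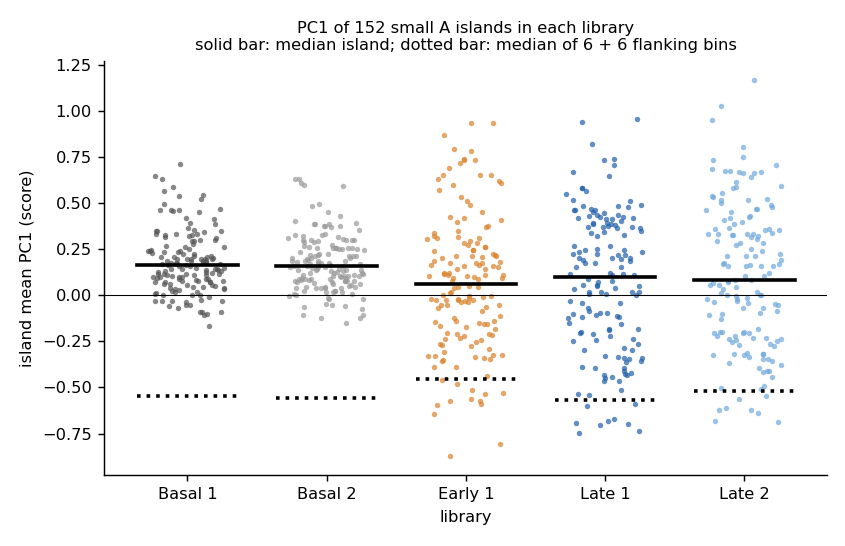
Mean PC1 of each of the 152 islands (points, score) in each of the 5 libraries, with the median island (solid bar) and the median of the 6 flanking bins on each side (dotted bar). The islands are packed near 0 in the Basal libraries that chose them and spread from -0.872 to 1.17 in Early and Late.

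How far a choice made on noisy values repeats was read from the 2 Basal libraries. When the rule was applied to Basal replicate 1 alone it found 168 islands, of which 107 (63.7%) were in A in Basal replicate 2. The same islands were in A in 91 cases (54.2%) in Early, and in 93 (55.4%) in each Late library. When the rule was applied to Basal replicate 2 alone it also found 168 islands, of which 114 (67.9%) were in A in Basal replicate 1. Those islands were in A in 89 cases (53.0%) for Early, 94 (56.0%) for Late replicate 1 and 95 (56.5%) for Late replicate 2. The Basal library that took no part in the choice kept more islands in A than the Early and Late libraries did, in both directions of choice. For the Late pair this held in 1 direction only. Of 144 islands chosen on Late replicate 1, 66.7% were in A in Late replicate 2, 47.2% in Early and 56.25% in Basal replicate 1. Of 160 islands chosen on Late replicate 2, 40.0% were in A in Late replicate 1, 50.6% in Early and 41.9% in Basal replicate 1.

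Islands overlapped an island of another library less often than they lay in A there. Such an overlap also requires a short flanked A run, so nothing is read from its lower share. The lists found in the 2 Basal libraries had 96 islands in common by at least 1 bin, 57.1% of each list. The rule found 146 islands in Early, and 42 of the 152 Basal islands (27.6%) shared a bin with one of them. On the mean of both Late libraries it found 138 islands, and 50 Basal islands (32.9%) overlapped one, while 36.2% of the Late islands overlapped a Basal one. Between the Late libraries alone, 63 islands were shared, 43.8% of the 144 in Late replicate 1 and 39.4% of the 160 in Late replicate 2.

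Most islands stood above their surroundings in every state. The mean PC1 of the 6 flanking bins on each side was -0.557 and -0.559 for the Basal pair, -0.442 for Early, then -0.503 and -0.455 for the Late pair. Islands exceeded their own flanks in 152 of 152 cases in each Basal library, whose mean chose them. They did so in 144 of 152 cases for Early, 149 for Late replicate 1 and 144 for Late replicate 2, and 136 islands (89.5%) did so in all 5 libraries. The elevation above the surroundings was retained more often than a PC1 above 0. In the Basal pair, however, islands averaged 0.740 and 0.734 above their flanks and only 0.182 and 0.175 above 0. The margins were thus unequal from the choice on, and nothing is read from the difference in shares.

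The height of that elevation was measured as a local contrast, the PC1 of a bin minus the mean of the 6 bins lying 200 to 300 kb away on both sides. Over the 342 member bins it averaged 0.864 and 0.850 for the Basal pair, 0.613 for Early, then 0.679 and 0.678 for the Late pair. It was above 0 in 324 of 342 bins for Early, 332 for Late replicate 1 and 321 for Late replicate 2. For members chosen on Basal replicate 2 alone, it averaged 0.761 in the left-out Basal replicate 1, 0.574 for Early, then 0.625 and 0.623 for the Late pair. For members chosen on Basal replicate 1 alone, it averaged 0.783 in the left-out Basal replicate 2, 0.591 for Early, then 0.659 and 0.654 for the Late pair. The left-out Basal library still had the highest local contrast and Early the lowest. That Basal library shares its state with the one that chose the members. Only the noise of the choosing library is thus taken out, and the choice of the Basal state remains. These means have 1 or 2 libraries a group and no test.

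**Figure D2:**
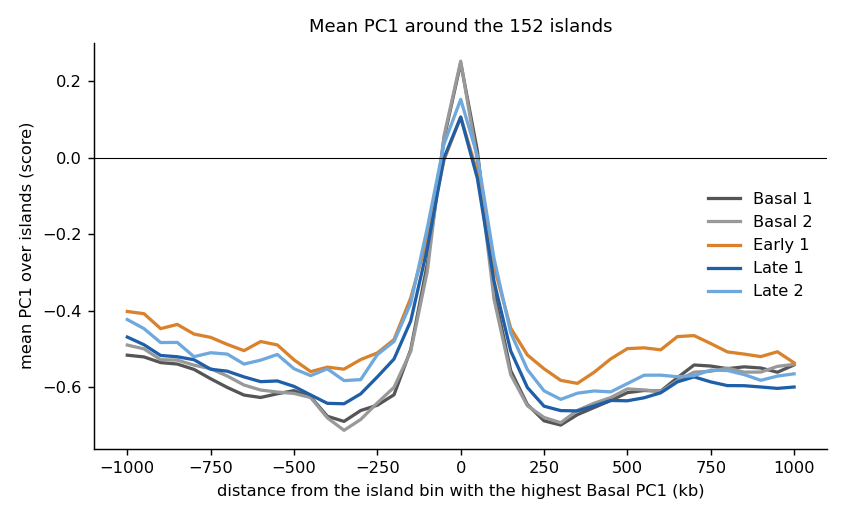
Mean PC1 (score) over the 152 islands against the distance from the island bin with the highest Basal PC1 (kb), 1 line per library. The peak reaches 0.248 and 0.253 for the Basal pair that chose the islands, 0.107 for Early, then 0.107 and 0.153 for the Late pair, and at 300 kb on either side every library is below -0.5.

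The islands met 3 different outcomes, judged at the bin of each with the highest Basal PC1. In Early this bin lay in an A run of at most 4 bins in 57 islands, in an A run longer than 4 bins in 32 and in B in 63. In Late replicate 1 the counts were 62, 34 and 56, and in Late replicate 2 they were 57, 35 and 60. The same counts were 130, 5 and 17 in Basal replicate 1, and 136, 4 and 12 in Basal replicate 2. Islands that had become part of a longer A run did so mostly over a short range, with a median run of 450 kb for Early, 450 kb for Late replicate 1 and 400 kb for Late replicate 2. The longest run reached 5250 kb for Early, 5450 kb for Late replicate 1 and 4450 kb for Late replicate 2.

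Part of the islands had the same outcome in Early and both Late libraries. Of the 152 islands, 24 were still short A runs in Early and both Late libraries, 13 were part of a longer A run in all 3, and 35 were in B in all 3. On chromosome 18 the island from 57500001 to 57600000 lay in long A runs in all 3 libraries. Its PC1 stood at 0.207 and 0.388 in Basal, at 0.094 in Early and at 0.824 and 0.450 in Late. It was named after its values were seen. The other 12 of these islands lay on chromosomes 1, 4, 5, 9, 14, 15 and 16.

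**Figure D3:**
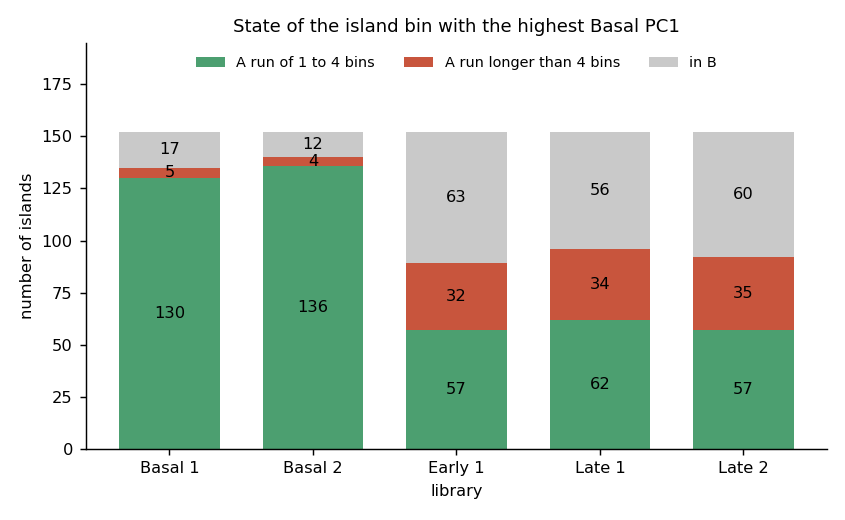
Number of islands (of 152) in each library whose bin of highest Basal PC1 lies in an A run of 1 to 4 bins, in an A run longer than 4 bins, or in B. Short runs number 130 and 136 for the Basal pair, 57 for Early, then 62 and 57 for the Late pair.

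Islands with a higher Basal PC1 were in A more often in Early and Late. Among the 51 islands with the highest Basal PC1 (0.208 to 0.638), 35 (68.6%) were in A in Early and 33 (64.7%) in both Late libraries. In the next 50 islands the shares were 52.0% and 54.0%. In the lowest 51 islands (0.0019 to 0.094), 22 (43.1%) were in A in Early and 21 (41.2%) in both Late libraries. In both Basal libraries 100% of the highest, 92.0% of the next and 47.1% of the lowest islands were in A. The lowest islands thus often lay in B within the Basal pair too, whose values set the ranking. By length, 41.3% of single bins and 64.3% of 4-bin islands were in A in Early, and 23 of 46 and 17 of 28 (60.7%) in both Late libraries. Height followed length, so the 2 are not separate measurements.

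The 5 islands with the highest Basal PC1 behaved unequally. Chromosome 18 from 15100001 to 15300000 stood at 0.647 and 0.629 in Basal, at 0.338 in Early and at 0.668 and 0.540 in Late. Chromosome 18 from 9300001 to 9450000 stood at 0.543 and 0.595 in Basal, at 0.451 in Early and at 0.406 and 0.159 in Late. Both stayed in A in every library. Chromosome 8 from 42300001 to 42500000 stood at 0.568 and 0.598 in Basal, at 0.653 in Early and at 0.939 and 1.03 in Late, so both Late libraries lay above all others. Chromosome 18 from 16750001 to 16950000 stood at 0.632 and 0.610 in Basal, at -0.261 in Early and at 0.201 and 0.055 in Late. It lay in B only in Early. Chromosome 18 from 45700001 to 45900000 stood at 0.716 and 0.496 in Basal, at -0.027 in Early and at 0.075 and -0.029 in Late, all 3 of the later values near the border.

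Some islands were deep in A in both later states. Chromosome 16 from 87350001 to 87550000 stood at 0.333 and 0.258 in Basal, at 0.737 in Early and at 0.742 and 1.17 in Late. Chromosome 1 from 79600001 to 79800000 stood at 0.418 and 0.374 in Basal, at 0.738 in Early and at 0.734 and 0.804 in Late. In both, every Early and Late value exceeded both Basal values. Chromosome 15 from 25700001 to 25900000 stood at 0.198 and 0.167 in Basal, at 0.493 in Early and at 0.648 and 0.519 in Late. Chromosome 4 from 95250001 to 95350000 stood at 0.102 and 0.040 in Basal, at 0.719 in Early and at 0.424 and 0.670 in Late. With the island on chromosome 8 above, these 4 had the highest lowest value over Early and Late, the measure that chose them.

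At the other end, 5 islands were chosen for the lowest highest value over the same 3 libraries. Chromosome 10 from 33250001 to 33300000 stood at 0.115 and 0.136 in Basal, at -0.596 in Early and at -0.694 and -0.684 in Late. It was the only one of the 5 with both Basal libraries well above 0. Chromosome 18 from 59350001 to 59500000 stood at 0.348 and -0.125 in Basal, at -0.805 in Early and at -0.737 and -0.689 in Late. Chromosome 1 from 15300001 to 15400000 stood at 0.227 and 0.018 in Basal, at -0.515 in Early and at -0.442 and -0.622 in Late. The others, on chromosome 14 from 15600001 to 15700000 and chromosome 10 from 63450001 to 63500000, had 1 Basal library below 0 each.

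Late was compared with Early across all bins in limma, whose difference holds none of the Basal values that chose the islands, while the Basal pair supplies part of the variance behind each p. At an adjusted p of 0.05, 43 of the 342 member bins (12.6%) were called, against 12.7% of all 47652 bins tested. Of these, 24 were higher in Late (7.02% of members, against 6.28% of all bins) and 19 were lower in Late (5.56%, against 6.44%). These shares lay near those of all bins. The median difference over members was -0.025 PC1 units, and -0.0030 over all bins. The called bins lay in 35 islands, of which 21 were higher and 14 lower in Late. With a 10 Mb trend removed the picture differed: 40 member bins (11.7%) were called, 35 higher and 5 lower in Late, against 7.57% of all bins, 58.4% of them higher. The median difference was then 0.113 over members and 0.012 over all bins. With values scaled by the SD and median of each chromosome, 31 member bins were higher and 16 lower (13.7% called), against 14.2% of all bins, 57.7% of them higher. Leaving out either Basal library gave 26 member bins (7.60%, against 7.97% of all bins). Leaving out Late replicate 1 gave 82 (23.98%, against 23.1%), leaving out Late replicate 2 gave 94 (27.5%, against 26.5%), and it was 0 with all sequences, chromosome 7 included, as deposited, where 88 had an unadjusted p under 0.05. The fit assumes that Early, with 1 library and the highest estimated local noise, varies like the others.

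No member bin was called when the local contrast was tested in place of PC1 (limma, 0 of 342 members and 0% of all 46615 bins). At an unadjusted p under 0.05 there were 76 member bins (22.2%), against 18.3% of all bins. The absence of calls did not hold with either Late library left out, which leaves 1 library in Late. Member bins and other bins were then called at an adjusted p of 0.05. With all 5 libraries the median difference in local contrast was 0.080 over members and -0.0043 over all bins. A higher contrast in Late was seen in 207 of 342 member bins. Some single differences were large: the local contrast of the chromosome 11 island from 82600001 was 0.845 and 0.844 in Late, against 0.046 in Early. That of the chromosome 3 island from 16100001 was 1.22 and 1.34 in Late, against 0.460 in Early.

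**Figure D4:**
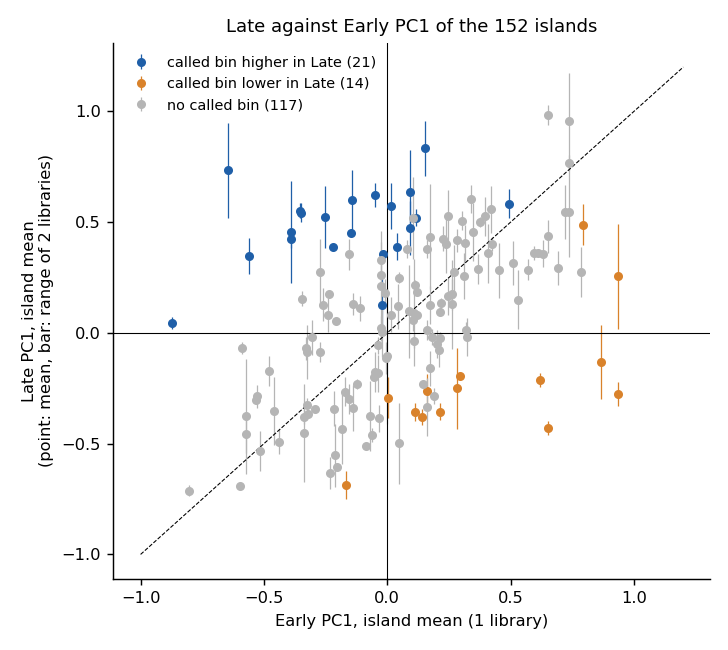
Mean PC1 of each of the 152 islands in Late (vertical axis, mean of 2 libraries with bars for their range) against Early (horizontal axis, 1 library), with islands that hold a called bin coloured by direction. Of these, 21 hold a bin called higher in Late and 14 a bin called lower, and the dashed line marks equal values.

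Of the 10 named islands with a bin called higher in Late, 9 lay in B in Early. Chromosome 1 from 4850001 to 4900000 had 0.519 and 0.950 in Late, against -0.645 in Early, a difference of 1.38 (SE 0.197, limma adjusted p = 0.0064), with Basal at -0.031 and 0.161. Chromosome 3 from 16100001 to 16150000 had 0.016 and 0.073 in Late, against -0.872 in Early, with a difference of 0.917 and Basal at 0.175 and 0.172. It had the lowest Early value of any island and returned only to the border. Chromosome 14 from 51500001 to 51550000 had 0.585 and 0.501 in Late, against -0.351 in Early, with a difference of 0.894. Chromosome 18 from 58000001 to 58050000 had 0.585 and 0.519 in Late, against -0.354 in Early, with a difference of 0.906. Chromosome 11 from 82600001 to 82700000 had 0.461 and 0.385 in Late, against -0.390 in Early, and was called in both of its bins with a mean difference of 0.813. In all of these the 2 Late libraries lay on 1 side of 0 and Early on the other.

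The other 5 named rises were on chromosome 16 from 45100001 to 45200000 (difference 1.05 over called bins), chromosome 8 from 32250001 to 32300000 (0.909) and from 81200001 to 81250000 (0.778), chromosome 9 from 117950001 to 118000000 (0.844) and chromosome 10 from 30300001 to 30500000 (0.834, in 1 of its 4 bins). The island on chromosome 10 was in A in all 5 libraries, at 0.484 and 0.558 in Late, against 0.117 in Early. The largest adjusted p among the called bins of the 10 named rises was 0.028.

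The flanks were higher in Late than in Early at 9 of the 10 named islands with a rise, by unequal amounts. At the chromosome 18 island from 58000001 the flanking bins averaged 0.0715 in Late, against -0.779 in Early. At the chromosome 1 island they averaged -0.0737 in Late, against -0.748 in Early. At the chromosome 11 island they averaged -0.279 in Late, against -0.466 in Early. The least of the 9 was on chromosome 10, at -0.706 in Late, against -0.818 in Early, and the exception was on chromosome 9, at -0.142 in Late, against -0.0895 in Early.

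The falls were led by chromosomes 15 and 4. Chromosome 15 from 40600001 to 40650000 had -0.223 and -0.332 in Late, against 0.934 in Early, a difference of -1.21 (SE 0.144, limma adjusted p = 0.0039), with Basal at 0.0039 and 0.072. Chromosome 4 from 80550001 to 80600000 had -0.463 and -0.397 in Late, against 0.651 in Early, with a difference of -1.08 and Basal at -0.088 and 0.099. Chromosome 15 from 32150001 to 32350000 had -0.181 and -0.245 in Late, against 0.619 in Early, and was called in 3 of its 4 bins with a mean difference of -1.08. These islands were in A in Early and in B in both Late libraries. Chromosome 19 from 17200001 to 17300000 had -0.298 and 0.037 in Late, against 0.868 in Early, with a mean difference of -0.999 over both of its bins. Its flanks averaged -0.236 in Late, against 0.571 in Early. At the chromosome 4 island the flanks averaged -0.727 in Late, against -0.263 in Early. The flanks were lower in Late at every other named fall too, except on chromosome 15 from 8950001. There they averaged -0.425 in Late, against -0.635 in Early.

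Smaller falls were called on chromosome 13 from 20500001 to 20700000 (difference -0.790 over called bins), chromosome 12 from 50450001 to 50600000 (-0.687), chromosome 8 from 68150001 to 68350000 (-0.647), chromosome 14 from 14000001 to 14100000 (-0.607), and chromosome 15 from 67900001 to 68100000 (-0.662) and from 8950001 to 9100000 (-0.598). The island on chromosome 13 had -0.181 and -0.207 in Late, against 0.295 in Early and 0.327 and 0.369 in Basal, so Late stood apart from both other states. The island on chromosome 15 from 8950001 stayed in A throughout, at 0.395 and 0.582 in Late, against 0.794 in Early. The largest adjusted p among the called bins of the 10 named falls was 0.047. Several of these smaller falls depended on the processing: of 13 alternatives the call was kept in 7 on chromosome 14 and on chromosome 15 from 8950001, in 8 on chromosome 12, in 9 on chromosome 8 and on chromosome 15 from 67900001, and in 12 on chromosome 13. The chromosome 14 island differed by a mean of only -0.046 once a 10 Mb trend was taken out.

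By sign alone, 25 islands lay in A in both Late libraries and in B in Early, and 15 lay in B in both Late libraries and in A in Early. Counted by bin, 47 of 342 member bins (13.7%) had the first pattern, against 3.48% of autosomal bins, and 37 (10.8%) had the second, against 4.24%. The rule picks A bins near the border, where a small difference changes the sign, so nothing is read from the larger shares. Of the second kind, chromosome 9 from 89850001 to 89900000 was called, at -0.395 and -0.316 in Late, against 0.213 in Early (difference -0.569, limma adjusted p = 0.039). Not called was chromosome 4 from 5650001 to 5700000, at -0.248 and -0.323 in Late, against 0.189 in Early.

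**Figure D5:**
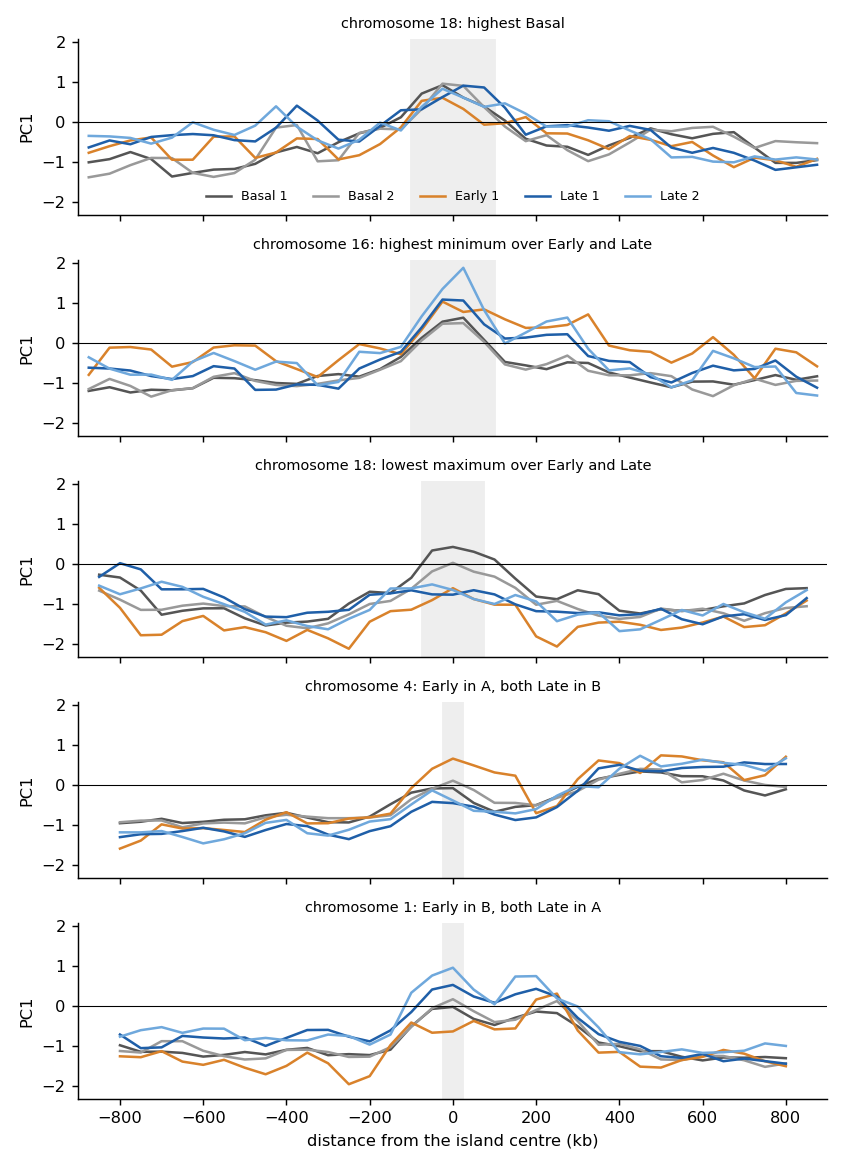
PC1 (score) in each library against the distance from the island centre (kb) for 5 islands (grey band), the first of each kind chosen by the naming rule. From top to bottom these are the highest Basal island, the island highest and the island lowest in all of Early and Late, and the leading islands in A in Early but B in Late and in B in Early but A in Late.

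Early values were grouped by chromosome. On chromosome 15 all 12 islands were in A in Early, from 0.0390 to 0.934 with a median of 0.407, and 6 of the 12 were in A in both Late libraries. Their mean was 0.200 and 0.192 for the Basal pair, 0.447 for Early, then 0.0932 and 0.113 for the Late pair. Their flanks averaged -0.546 in Basal, -0.325 in Early and -0.480 in Late. On chromosome 4, 13 of 15 islands were in A in Early and 7 in both Late libraries. On chromosome 18, 6 of 13 were in A in Early and 10 in both Late libraries, and on chromosome 1 it was 4 and 8 of 12. On chromosomes 10 and 11, 1 of 6 and 2 of 9 islands were in A in Early, with the same numbers in both Late libraries. Neighbouring regions moved too: of the Basal B bins of chromosome 15, 17.4% were in A in Early, against a range over the 18 autosomes from 4.38% on chromosome 11 to 24.1% on chromosome 19. On chromosome 19, where 4 of 5 islands were in A in Early, the flanks averaged 0.0950 in Early, against -0.440 in Basal. The part of such wider shifts in the island values was not tested.

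The values of an island were closely repeated between the Late libraries. Over the 152 islands Pearson r was 0.860 for the Late pair, and 0.377 and 0.413 between Early and each Late library. Between the Basal libraries r was 0.561, where the choice of members narrows the range. The median SD between the 2 libraries of a group was 0.094 PC1 units in Late and 0.067 in Basal.

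Against Basal, calls are not independent of the rule, and nothing is read from them. Where a count below has no share of all bins beside it, it cannot be set against other bins. In the Late versus Basal fit 93 of 342 member bins (27.2%) were called, against 16.4% of all bins, 21 higher (8.78% of all bins) and 72 lower in Late (7.63% of all bins). Without Basal replicate 1 or 2 it was 21 or 25. In the Early versus Basal fit 77 member bins (22.5%) were called, against 19.9% of all bins, 25 higher (9.97% of all bins) and 52 lower in Early (9.98% of all bins). With values scaled by the SD and median of each chromosome 13 were higher and 66 lower. That is 23.1% called, against 23.3% of all bins, 37.1% of them higher. With a 10 Mb trend removed 7 were higher and 56 lower. That is 18.4% called, against 12.9% of all bins, 43.4% of them higher. Without Basal replicate 1 or 2 it was 20 or 22, and 133 without either Late library. With all sequences as deposited it was 0 for Late versus Basal (0% of all bins). For Early versus Basal it was then 7 (2.05%, against 4.12% of all bins). In the local contrast 96 member bins (28.1%, against 13.1% of all bins) had an unadjusted limma p under 0.05 in Late versus Basal. In Early versus Basal it was 128 (37.4%, against 20.1%). No member bin was called in either local contrast fit. Of all bins 0.195% were called in Early versus Basal, 0.0794% higher and 0.116% lower.

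The mirror image, small B islands inside A, was the class most like this one. The mirrored rule found 91 such islands with 212 bins, against the 152 A islands. Of the A islands 54.6% kept their side of 0 in Early and 53.3% in both Late libraries, while of the B islands 36.3% did so in Early and 28.6% in both Late libraries. With chromosome medians set to 0 the shares were 75 of 150 and 48.7% of A islands, and 42.9% and 29.7% of B islands. With quantile normalization they were 50.7% and 46.7% of A islands, and 44.3% and 29.9% of B islands. The distance in Early thus depended in part on where the border was set. In the Late versus Early fit 43 of 342 A island bins (12.6%) and 48 of 212 B island bins (22.6%) were called. No test of this difference was made, since bins of an island share reads.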

How the data were processed

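Each Hi-C library came as 1 table with the deposited PC1, a signed score per 50 kb bin. The authors made it with HOMER on mm9, per the submitters' processing notes, in windows of 100 kb, per the file names, so neighbouring bins share reads. The sources used here name no version, aligner, read filter or rule for the sign. With only scores deposited, the depth is unknown. Libraries were grouped by title. The labels call the replicates biological, and p-values measure the spread between these few libraries.

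Neighbouring bins start 50 kb apart, and a missing bin ends a run. Chromosome 7 was left out because its sign is inverted in Late replicate 1 (r with Basal replicate 1 of -0.925). No bin was filtered for a low value, so all 342 members entered every PC1 fit. Coordinates are 1-based. limma 3.58.1 in R 4.3.3 was fitted to 47652 bins (18 autosomes and X) with all 5 libraries in 1 fit, 2-sided, with Benjamini-Hochberg adjustment. It had 2 residual degrees of freedom and a prior of 6.60. The fit and the rule were tested on simulated data. Python 3.11.15, numpy 2.4.6 and pandas 2.3.3 were used. Members, naming rules and alternatives were chosen with earlier results of these data known. The named islands were the 5 highest in Basal, the 5 with the highest minimum and the 5 with the lowest maximum over Early and Late, up to 5 with opposite signs in Early and Late in each direction, and up to 10 per direction called in Late versus Early.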

Additional observations from a re-analysis of the deposited data

Results flagged for a closer look

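At 15 named islands the changes from Basal in Early and in Late had opposite directions, and the Late versus Early test in limma called at least 1 bin. Late minus Early over the called bins was 1.38 on chromosome 1 from 4850001, 1.05 on chromosome 16 from 45100001, 0.909 and 0.778 on chromosome 8 from 32250001 and 81200001, 0.906 on chromosome 18 from 58000001, 0.894 on chromosome 14 from 51500001, 0.844 on chromosome 9 from 117950001, 0.834 on chromosome 10 from 30300001 and 0.813 on chromosome 11 from 82600001. It was -1.21, -1.08 and -0.662 on chromosome 15 from 40600001, 32150001 and 67900001, -1.08 on chromosome 4 from 80550001, -0.999 on chromosome 19 from 17200001 and -0.607 on chromosome 14 from 14000001. On chromosome 15 from 67900001 Late minus Basal was -0.060, and Late replicate 2 (0.493) lay above both Basal libraries (0.415 and 0.215), so the opposite direction there rests on Late replicate 1 (0.018). Basal values chose the islands and took part in finding these opposite directions. The directions are signs of the difference in island mean, and at several islands a change from Basal was not itself called. Neither change was called on chromosome 9 (smallest limma adjusted p 0.090 for Late and 0.177 for Early). The same held on chromosome 8 from 81200001 (0.102 and 0.148) and on chromosome 14 from 14000001 (0.142 and 0.108). Over all islands, 24 of the 35 with a called bin showed such opposite directions. The rule picks bins near the border in Basal, and no share for other called bins stands beside this count, so nothing is read from it.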

How the results depend on the processing

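Requiring both Basal libraries on their side of 0 left 50 islands with 118 bins, of which 29 were in A in Early and 33 in both Late libraries. With flanks of at least 10 bins 51 islands stayed in A in both Late libraries, and with flanks of at least 4 bins 127 were in A in Early. With all sequences as deposited the member bins called were 0 for Late versus Early, 0 for Late versus Basal and 7 for Early versus Basal, with 88, 137 and 100 at an unadjusted p under 0.05. At an adjusted p of 0.1, 83 member bins were called in Late versus Early (24.3%, against 22.3% of all bins), and 9 in the local contrast (2.63%, against 2.06%). Leaving out 1 library gave 26 to 94 calls in Late versus Early, 21 to 138 in Late versus Basal, 20 to 133 in Early versus Basal and 0 to 38 in the local contrast. With flanks 4 to 10 bins away the mean local contrast was 0.868 in Basal, 0.637 in Early and 0.707 in Late. With members chosen on 1 Basal library it was 0.574 to 0.591 in Early and 0.624 to 0.656 in Late. In Basal it was then 0.792 to 0.829, a mean that includes the library that chose the members. The cause of these shifts was not tested. All 20 islands named for a Late versus Early call lost it with all sequences as deposited, 7 with a 10 Mb trend removed, 4 with chromosome SD and median scaling, 4 without either Basal library and 3 under a prior with a trend. None reversed.

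The replicate numbers did not pair the libraries: differences between replicates 1 and 2 in Basal and Late correlated with r = 0.0111 over 44650 autosomal bins. With the replicate block the member bins called were 44 in Late against Early (0 in its local contrast), 97 in Late against Basal and 65 in Early against Basal. For counts with no share of all bins beside them, no comparison with other bins is made here. Early rests on 1 library, whose own spread could not be measured.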

Other observations

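The same rule was applied to the chromosomes outside the list. X had 9 islands with 20 bins, of which 8 and 7 had a PC1 above 0 in Basal replicates 1 and 2, 1 in Early and 2 in both Late libraries. Their mean PC1 stood at 0.253 and 0.147 in Basal, at -0.814 in Early and at -0.472 and -0.478 in Late. X as a whole also differed more between states. Its r with Basal replicate 1 was 0.642 for Early, then 0.800 and 0.746 for the Late pair. Over autosomal bins it was 0.906, 0.943 and 0.929 in the same order. The part of this wider difference in the X islands was not tested. Chromosome 7 had 5 islands with 9 bins, with mean PC1 at 0.0859 and 0.0960 in Basal, at -0.125 in Early and at -0.221 and 0.0948 in Late. On this chromosome the sign of Late replicate 1 is inverted as deposited.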
